A study of Mus musculus with 2 samples.

Results

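The vacuolar proton pump (V-ATPase) and the transporters that set the pH of the Golgi and endosomes were examined in mouse brain after loss of GPHR, the Golgi pH regulator, an anion channel of the Golgi membrane encoded by Gpr89. The set held 33 genes, picked by name: 9 of the membrane sector V0, 9 of the cytosolic sector V1, 3 accessory or assembly factors, 4 sodium/proton exchangers, 5 chloride transporters of the CLC family and 3 other cation or anion transporters. Of these, 31 gave a signal well above background on both arrays, out of 23946 such genes in all. Of the 31, 26 had a lower scaled signal in the GPHR F/F;Nes brain, as did 43% of all genes. Of the 5987 genes with the highest levels, which held 19 of the 31, 58.8% were lower. The median difference of the 31 was -0.30 on the log2 scale, which is 1.23-fold lower, against 0.07 for all genes.

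Whole-brain total RNA was hybridised to 2 one-colour arrays, 1 per genotype. One brain was GPHR F/F, which carries the floxed alleles and served as the littermate control. The other was GPHR F/F;Nes. Both were of strain C57BL/6J at postnatal day 10, and both genotypes carry the F/F alleles. The driver that "Nes" stands for, any cells in which the gene was removed and any pooling of animals are not given in the sources used here. With 1 array per group no difference has a replicate check and none was tested. The ± values below are the scanner software's error for a spot, carried through to the difference, and leave out the spread between animals.

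The V-ATPase is a rotary pump. Its V1 sector hydrolyses ATP in the cytosol, and the V0 sector carries protons across the membrane of the Golgi, endosomes, lysosomes and synaptic vesicles. A chloride or other anion pathway lets the proton gradient build up without a large voltage, and sodium/proton exchangers let protons leak back out. Several subunits exist as isoforms, and in brain the a1, e2 and G2 forms are known from neurons and synaptic vesicles.

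The 60-base probes below read parts of 5 of these mRNAs and are shown because the lower signals rest on such oligonucleotides. They were picked after their values were seen, among probes for curated RefSeq mRNAs, for having at least 1 reading frame with no stop codon. They are written 5′ to 3′ as the array files give them. On build mm9, per the array files, the Atp6v0a1 probe lies at chr11:100881876-100882418 on the plus strand, and the 60 bases span 543 bp there. The Atp6v0c probe lies at chr17:24301748-24301807 on the minus strand. The Atp6v1b2 probe lies at chr8:71626723-71627298 on the plus strand and spans 576 bp, and the Atp6v1h probe at chr1:5126004-5133875 on the plus strand spans 7872 bp. The Clcn4-2 probe lies at chr7:7240421-7240480 on the minus strand.
Atp6v0a1: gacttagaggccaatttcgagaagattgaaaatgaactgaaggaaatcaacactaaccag
Atp6v0c: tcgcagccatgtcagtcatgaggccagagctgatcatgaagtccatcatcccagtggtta
Atp6v1b2: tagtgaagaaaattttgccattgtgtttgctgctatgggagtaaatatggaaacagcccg
Atp6v1h: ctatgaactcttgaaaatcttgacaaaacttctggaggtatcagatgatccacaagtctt
Clcn4-2: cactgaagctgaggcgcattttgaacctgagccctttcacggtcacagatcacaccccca

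Promoter windows are shown because TFEB, TFE3 and MITF, which switch on genes of acidic organelles, are known to bind the E-box CACGTG within a longer element. RefSeq promoter sequences of build GRCm38.p6, from 250 bases before to 50 after a gene's start, were matched for 27 of the 33 genes. Atp6v0a2, Atp6v0d2, Atp6v1b2, Atp6v1c1, Atp6v1g1 and Atp6v1h had no entry. On either strand, 4 overlapping motifs were searched: CACGTG, TCACGTGA, GTCACGTG and a 10-base form that adds AC to the last. CACGTG, which lies inside the other 3, was in 7 of the 27 genes (25.9%) and in 8.09% of all 27025 genes with a promoter. TCACGTGA was in 5 (18.5%) against 1.12% of all genes. GTCACGTG was in 4, namely Atp6v0b, Atp6v0d1, Clcn6 and Clcn7 (14.8%), against 2.55%. The 10-base form was in 0 of the 27 against 0.37%.

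The 5 windows with TCACGTGA follow, a motif picked for printing after these counts were seen. Each runs from 150 bases before to 30 after the start on the gene's own strand, with TCACGTGA and any further CACGTG in capitals. They lie at chr8:105566035-105566214 (minus strand) for Atp6v0d1, chr17:26676246-26676425 (plus) for Atp6v0e, chr16:44139230-44139409 (minus) for Atp6v1a, chr4:148038784-148038963 (minus) for Clcn6 and chr17:25133241-25133420 (plus) for Clcn7, all on GRCm38.p6.
Atp6v0d1: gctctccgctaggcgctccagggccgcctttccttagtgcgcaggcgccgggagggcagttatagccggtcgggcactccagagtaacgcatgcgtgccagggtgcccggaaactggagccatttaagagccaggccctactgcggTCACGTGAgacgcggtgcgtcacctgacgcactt
Atp6v0e: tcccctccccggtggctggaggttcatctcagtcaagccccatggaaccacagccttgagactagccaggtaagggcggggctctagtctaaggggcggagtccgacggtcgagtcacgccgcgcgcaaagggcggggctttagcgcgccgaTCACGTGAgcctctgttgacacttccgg
Atp6v1a: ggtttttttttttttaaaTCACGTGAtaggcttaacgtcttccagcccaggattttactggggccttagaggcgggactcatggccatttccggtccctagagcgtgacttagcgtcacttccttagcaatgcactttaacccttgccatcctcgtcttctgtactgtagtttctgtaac
Clcn6: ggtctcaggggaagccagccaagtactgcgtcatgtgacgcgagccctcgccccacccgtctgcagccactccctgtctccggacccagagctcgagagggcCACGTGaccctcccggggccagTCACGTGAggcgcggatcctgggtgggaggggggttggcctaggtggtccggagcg
Clcn7: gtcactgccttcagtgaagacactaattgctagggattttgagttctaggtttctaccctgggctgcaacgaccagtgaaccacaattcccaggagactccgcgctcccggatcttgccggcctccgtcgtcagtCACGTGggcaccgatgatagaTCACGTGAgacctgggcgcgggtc

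Counted from the transcript start, TCACGTGA begins at base -4 in Atp6v0d1, -26 in Clcn6, -132 in Atp6v1a, 3 in Atp6v0e and 7 in Clcn7. The 5 genes with TCACGTGA ranged from -0.88 in Clcn6 to 0.22 in Atp6v0e, with a median of -0.36. The 21 measured genes with an entry but no match had a median of -0.30. With curated probes the order was reversed, with medians of -0.36 for the genes with TCACGTGA and -0.50 for those without. Genes with the motif therefore included Clcn6, well below 0, and Atp6v0e, above it. A match describes these letters only.

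Each array had 59305 spots that were not controls, none of them saturated. The 75th percentile of the signal was 259.5 units on the GPHR F/F array and 173.4 on the other, so a gene of equal scaled level reads fewer units on the second. Differences below are log2 signal after each array was set to its own 75th percentile, GPHR F/F;Nes relative to GPHR F/F. Signals in units are as scanned. Gpr89 itself read 43.3 units in the control and 20.04 in GPHR F/F;Nes, a difference of -0.53 ± 0.22. It had 1 probe, whose place relative to any deleted part is not given, and the signal stayed well above background on both arrays. Xist cleared the background on the GPHR F/F;Nes array only, and Eif2s3y, Ddx3y and Uty on the control array only. Kdm5d had 4 probes above background only in the control and 1 on both arrays, with 155 and 136 units, so the arrays also differ in sex-linked transcripts.

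The V0 sector spread on both sides of 0. Of its 7 measured genes 4 were lower and 3 higher, with a median of -0.23. Across all measured genes 43% were below 0, 57% above, and 5.69% were 1.5-fold or more lower. These shares also stand beside the counts of the other subgroups and lists below at this setting. The share below 0 rose with level. It was 24.0% for the 5987 dimmest genes, which held 0 members, and 58.8% for the 5987 brightest, which held 19. Atp6v0c, the proteolipid of the proton-carrying ring, was among the lower genes of the sector. Its first probe read 4762 units in the control and 2022 in GPHR F/F;Nes, and its second read 15282 and 7120. Both probes were lower, and their mean was -0.59 ± 0.14, at the 1.5-fold mark. Atp6v0d1, the subunit at the base of the central stalk, went from 4596 to 2398 units, a difference of -0.36 ± 0.20.

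Atp6v0a1, the a isoform of nerve terminals, was measured by 4 probes that disagreed. Those for curated RefSeq mRNAs read 11828 units in the control and 4643 in GPHR F/F;Nes, and 282 and 116. A probe for a GenBank cDNA went from 129 to 81.7 units. An Ensembl transcript probe near the detection limit read 10.5 and 10.7. The mean over the 4 was -0.23 ± 0.12, and that of the curated probes -0.73 ± 0.14, 1.66-fold lower. The bright curated probe lies at chr11:100924969-100925028 (mm9, plus strand). Atp6v0b, a second ring subunit, split in the same manner. Its curated probe went from 4170 to 1828 units, a difference of -0.61 ± 0.20. An Ensembl transcript probe read 6.69 and 8.81 units, a difference of 0.98 ± 0.39. Their mean, 0.19 ± 0.22, has the sign of the dim probe, and the gene is below 0 with the curated probe, with the brightest probe, with a stricter filter on dim probes and under 4 other scalings (quantile, normexp with quantile, median centring and spike-ins).

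Atp6v0e, the widely expressed e isoform, was on the higher side, with 2772 units in the control and 2420 in GPHR F/F;Nes on its curated probe. Over both measured probes the difference was 0.22 ± 0.14. Atp6v0e2, the e isoform prominent in brain, went from 15581 to 8893 units, a difference of -0.23 ± 0.20. Atp6v0a2, the a isoform of the Golgi and early endosomes, was at 0.15 ± 0.12, and its 3 probes ran from 0.04 to 0.22. It is the a subunit assigned to the Golgi, and it was not among the lower genes at this scaling.

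The isoforms tied to other epithelia or bone were at the detection limit. Atp6v0a4, known from kidney and inner ear, was well above background in the control alone, with 8.58 units against 3.76. By a bound that leaves out scanner error it was at least 1.13-fold lower in GPHR F/F;Nes, and the difference as read was -0.61 ± 0.55. Atp6v0d2, known from osteoclasts, was not well above background on either array. Its probes read 1.30 and 3.24 units in the control and 1.05 and 2.42 in GPHR F/F;Nes.

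All 9 genes of the V1 sector were measured, and each was below 0. Of all genes 43% were, and of the 5987 genes with the highest levels 58.8%. The V1 genes ran from -0.46 to -0.11, with a median of -0.30. None reached 1.5-fold. The catalytic and nucleotide-binding subunits were toward the lower end. Atp6v1a, the catalytic A subunit, read 9126 units in the control and 4553 in GPHR F/F;Nes, a difference of -0.42 ± 0.20. Atp6v1b2, the B subunit of brain, had probes at 12275 and 6168 units and at 426 and 203, with a mean of -0.45 ± 0.14. Its partner in the hexamer thus had nearly the same value.

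Atp6v1c1, the C subunit that docks V1 on the membrane, went from 2160 to 1051 units, a difference of -0.46 ± 0.20, close to that of Atp6v1b2. Atp6v1d, the central shaft, went from 10687 to 5459 units, a difference of -0.39 ± 0.20. The peripheral stalk subunit Atp6v1e1 went from 5811 to 3162 units, or -0.30 ± 0.20. Atp6v1h, which couples and restrains the V1 motor, had 3 probes from -0.41 to -0.04 and a mean of -0.25 ± 0.12. Its curated probes read 8032 and 4357 units, and 1768 and 888.

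The smallest differences of V1 were within the scanner error of 0. Atp6v1f, a small subunit of the central stalk, read 15473 and 9609 units, a difference of -0.11 ± 0.20. Atp6v1g1, the common G isoform of the peripheral stalk, read 11659 and 6990, or -0.16 ± 0.20. Atp6v1g2, the neuronal G isoform, had curated probes at 570 and 271 units and at 833 and 369, and an Ensembl transcript probe at 46.1 and 34.8. Its mean was -0.30 ± 0.12, and -0.54 ± 0.14 over the curated probes. In all, 13 of the 16 measured V0 and V1 subunits were below 0, with a median of -0.27, or 14 of 16 and -0.37 with curated probes. Of all genes, 43% were below 0, or 52.2% with curated probes.

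In each of 3 isoform pairs the form known from neurons was lower than its partner, in differences rather than levels. Atp6v0a1 was below Atp6v0a2 by a log2 difference of -0.38 ± 0.17, or -0.86 ± 0.20 with curated probes. Atp6v0e2 stood against Atp6v0e at -0.44 ± 0.25, and at -0.61 ± 0.29 with curated probes. For Atp6v1g2 against Atp6v1g1 the gap was -0.15 ± 0.24, which is within its error, and -0.39 ± 0.25 with curated probes. Scaling between arrays cancels in these gaps where it adds 1 constant to each array. The pairs were set out with earlier results of these data known.

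**Figure D1:**
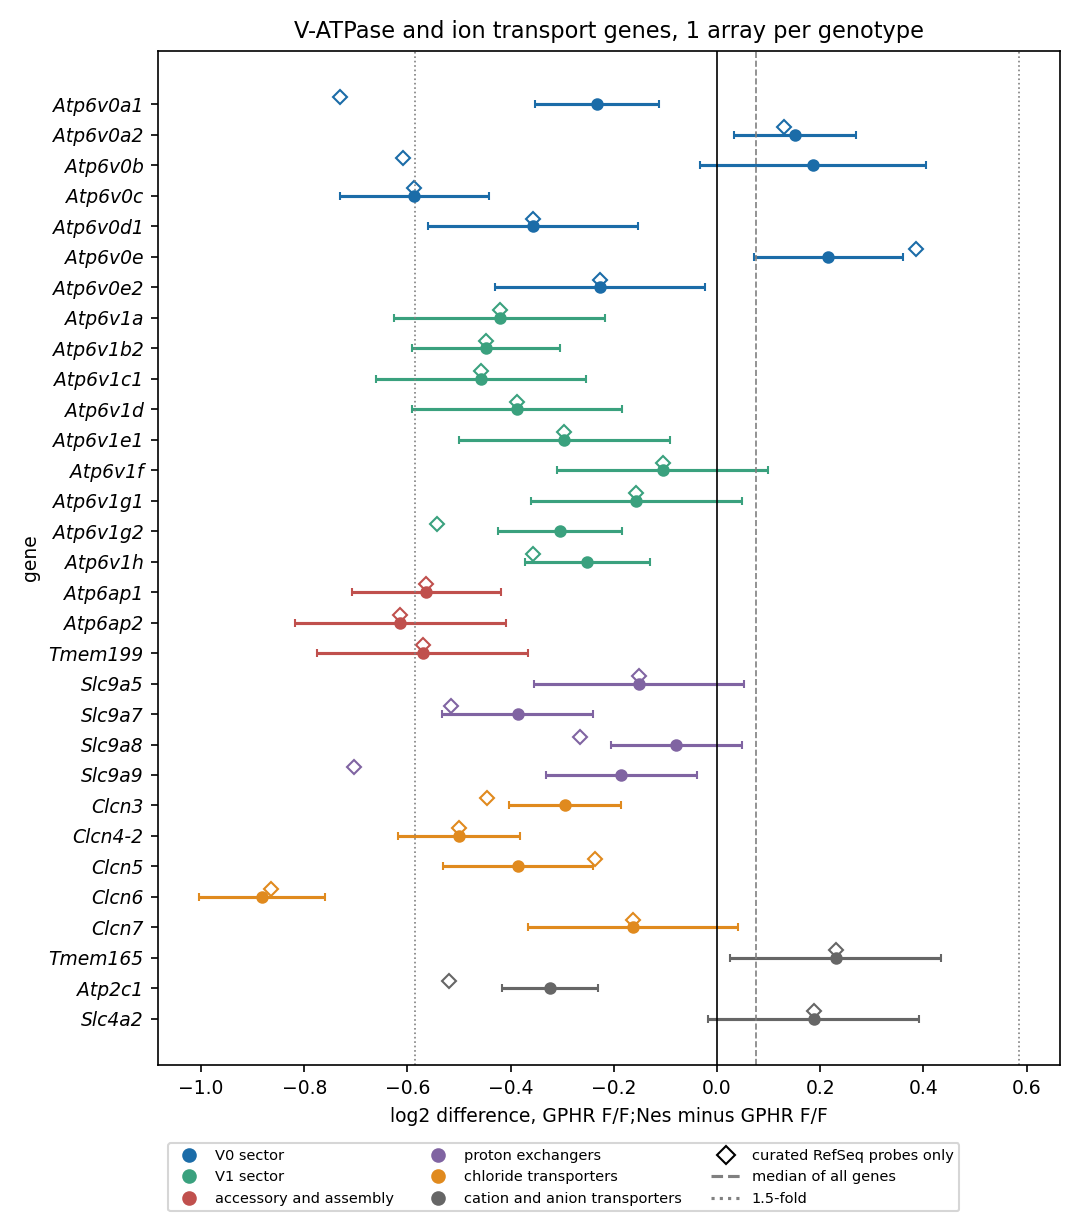
Log2 difference of each of the 31 measured genes (horizontal axis, GPHR F/F;Nes relative to GPHR F/F, 1 array each), with filled points for the mean over measured probes, bars for the scanner error, open diamonds for curated RefSeq probes alone, a dashed line at the median of all genes (0.07) and dotted lines at 1.5-fold. Points to the left of 0 number 26; the 5 to the right lie between 0.15 and 0.23 and move to the left of 0 when arrays are centred on their median or scaled to spike-ins.

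The accessory and assembly factors were the lowest subgroup, with 3 of 3 below 0 and a median of -0.57. Atp6ap1 (Ac45), a glycoprotein subunit that guides assembly of V0, had probes at 2124 and 994 units and at 763 and 333, with a mean of -0.56 ± 0.14. Atp6ap2, the prorenin receptor and a V0 partner in assembly, went from 5666 to 2474 units, a difference of -0.61 ± 0.20, 1.53-fold lower. Tmem199, the counterpart of a yeast V-ATPase assembly factor, went from 249 to 112 units, a difference of -0.57 ± 0.20. The values of these genes are within the scanner error of each other.

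All 4 sodium/proton exchangers were below 0, with a median of -0.17, or -0.39 with curated probes. Slc9a7 (NHE7), of the trans-Golgi network, was at -0.39 ± 0.15. Its 3 probes, at 1964 and 952 units, 119 and 55.7, and 13.8 and 8.14, were all lower. Slc9a5 (NHE5), of recycling endosomes in neurons, went from 798 to 480 units, or -0.15 ± 0.20.

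Slc9a9 (NHE9), of recycling endosomes, had a curated probe that went from 711 to 292 units, a difference of -0.70 ± 0.20 and 1.63-fold lower. An Ensembl transcript probe read 60.6 and 51.0 units, a difference of 0.33 ± 0.21, and the mean of both was -0.19 ± 0.15. Slc9a8 (NHE8), of the Golgi, had 4 measured probes from -0.59 to 0.48 and a mean of -0.08 ± 0.13. Its brightest, at 1254 and 804 units, was at -0.06 ± 0.20. Whether NHE8 and NHE9 were lower thus depended on the probe.

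The CLC proteins of acidic organelles exchange chloride for protons, and the 5 genes were all below 0, with a median of -0.39. Clcn6, of late endosomes in neurons, had the lowest value of the set at this setting. Its 3 measured probes went from 197 to 80.2 units, from 78.1 to 24.9 and from 73.5 to 27.0, and another was well above background in the control alone, at 15.6 against 3.69. The mean was -0.88 ± 0.12, 1.84-fold lower, and 1.98% of all measured genes were lower still. Its probes were all lower whatever their source. With the brightest probe Clcn6 was at -0.71 and Atp6v0a1 at -0.77, with normexp it was at -0.54, short of 1.5-fold, and Atp6v0c at -0.61, and a stricter filter on dim probes left it out.

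Clcn4-2, the mouse gene for the endosomal exchanger ClC-4, had probes at 8682 and 4072 units, 3917 and 1805, and 124 and 60.6. Their differences ran from -0.54 to -0.45, with a mean of -0.50 ± 0.12. Clcn3, of endosomes and synaptic vesicles, was at -0.29 ± 0.11 over 4 probes and -0.45 ± 0.12 over its 3 curated ones, the brightest of which read 11115 and 5392 units. Clcn5, of endosomes, had 402 and 185 units on an Ensembl transcript probe and 133 and 75.7 on a curated one, with a mean of -0.39 ± 0.15. Clcn7, of lysosomes, went from 1881 to 1123 units, a difference of -0.16 ± 0.20. At this setting the endosomal forms each had a lower value than Clcn7, which had 1 measured probe. The gap between Clcn7 and either Clcn3 or Clcn5 is within their errors, and with its curated probe Clcn5 was at -0.24 ± 0.21.

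The last subgroup was mixed. Atp2c1, the calcium and manganese pump of the Golgi, had 5 probes from -0.69 to 0.08 and a mean of -0.32 ± 0.09. Its brightest went from 2518 to 1258 units, and its 3 curated probes had a mean of -0.52 ± 0.12. Tmem165, a Golgi transporter of manganese and calcium whose loss impairs glycosylation, was on the higher side, with 1138 units in the control and 892 in GPHR F/F;Nes, a difference of 0.23 ± 0.20. Slc4a2 (AE2), an anion exchanger that can sit in the Golgi, went from 242 to 184 units, or 0.19 ± 0.20. Atp2c1 and Tmem165, both Golgi cation handlers, differed in sign at this scaling, and all 3 genes of the subgroup were below 0 with median centring and with spike-ins.

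Past 1.5-fold, 3 of 31 genes were lower (Atp6v0c, Atp6ap2 and Clcn6) and 0 higher, where 5.69% of all genes were lower and 18.2% higher. None of the 31 reached 2-fold, which 1.37% of all genes did downward and 7.94% upward. The shift of the set thus lay in many small differences. The spread of all genes was 0.57 (SD), and the members ran from -0.88 to 0.23.

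**Figure D2:**
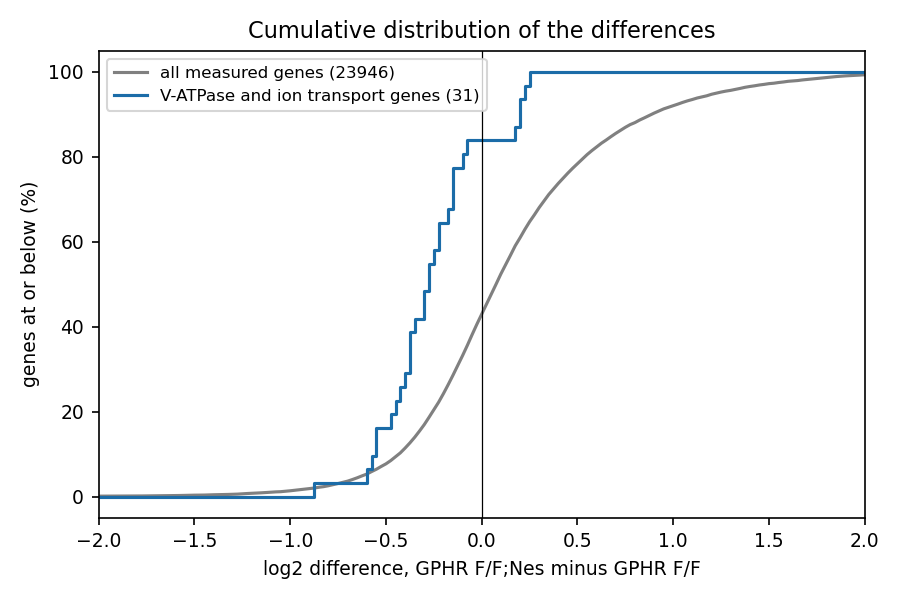
Share of genes (vertical axis, percent) at or below each log2 difference (horizontal axis, GPHR F/F;Nes relative to GPHR F/F), for the 31 measured members and all 23946 measured genes. The member curve lies left of the other through most of the range and reaches 26 of 31 genes at 0, where all genes reach 43%.

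The array carried 74 probes for the set, of which 63 were measured. Of the 46 for curated RefSeq mRNAs, 41 were below 0, with a median of -0.45. Of the 17 for Ensembl transcripts, GenBank cDNAs or RefSeq models, 8 were below 0 and 9 above, with a median of 0.05. Among 13 genes with both kinds, the curated mean was lower in 10. All 22308 measured curated probes had 53.7% below 0 and a median of -0.04, and the 14409 other measured probes 34.4% and 0.17, so the same ordering held outside the set. The curated probes of the set also had the brighter signals, with a median of 1824 units in the control against 77.8, and the part of brightness in the gap was not tested.

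**Figure D3:**
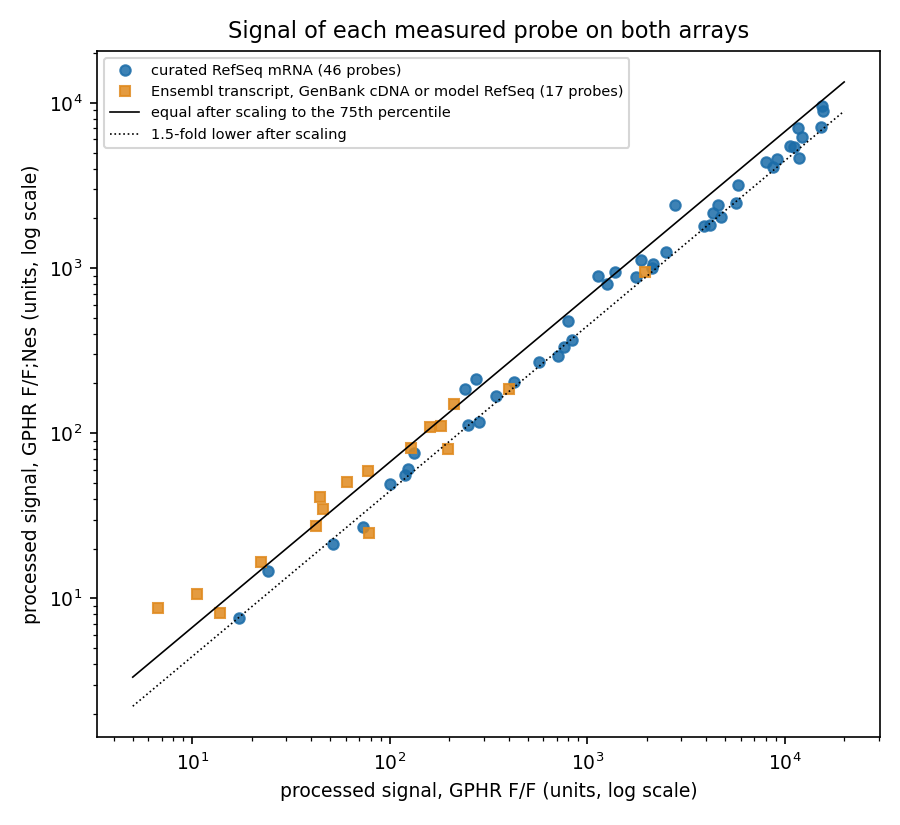
Processed signal of the 63 measured probes on the GPHR F/F array (horizontal axis) and the GPHR F/F;Nes array (vertical axis), in scanner units on log scales. Circles are the 46 curated RefSeq probes, which lie mostly between the solid line of equal scaled signal and the dotted line of 1.5-fold lower, and squares are the 17 others, of which 9 lie above the solid line.

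With curated probes alone, 27 of the 31 genes were below 0, with a median of -0.42, where 52.2% of 15117 genes were below 0 and their median was -0.02. The genes 1.5-fold or more lower were then 6, namely Atp6v0a1, Atp6v0b, Atp6v0c, Atp6ap2, Slc9a9 and Clcn6, where 7.46% of all genes were. The curated split for all genes was 47.8% above 0. None of the 31 reached 2-fold with curated probes, which 1.85% of all genes did downward and 5.99% upward. The sign also went with level. Of the 5987 genes with the highest levels, 58.8% were below 0, with a median of -0.07. They held 19 members, of which 17 were below 0 with a median of -0.30. The next 5986 genes had 52.9% below 0 and held 10 members, 7 of them below 0. The 5986 genes after those had 36.3% below 0 and held 2 members, with 2 below 0. The 5987 dimmest genes had 24.0% below 0 and held 0 members. The share of all genes below 0 thus includes dim genes of a level that the set lacks.

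Members on chromosome X were set apart because the arrays differ in sex-linked transcripts. Atp6ap1, Atp6ap2, Slc9a7 and Clcn5 are X-linked, all 4 were below 0, and their median was -0.47, against 0.06 over 942 measured genes of that chromosome. The 27 autosomal members had 22 below 0 and a median of -0.25. The sex difference between the arrays and the genotype cannot be told apart.

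Other genes that assemble or regulate the V-ATPase stood close to the set. All 13 on the list were measured, 10 were below 0, and the median was -0.28. Rogdi, a subunit of the RAVE-like complex that rejoins V1 and V0, was at -0.54 ± 0.14. Tbc1d24, a TLDc-domain protein of synaptic vesicle traffic, was at -0.41 ± 0.20, and Tmem9, a lysosomal V-ATPase partner, at -0.39 ± 0.14. Tldc1, another TLDc protein, was at 0.64 ± 0.17, and at -0.17 with curated probes.

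Isoforms of the pump from other tissues did not share a direction. Of 6 listed, 4 were measured, 2 of them below 0. Tcirg1, the a3 subunit of osteoclasts, lysosomes and macrophages, was at 0.99 ± 0.15. Atp6v1c2, a C isoform of epithelia, was at -1.52 ± 0.29. Atp6ap1l was at -0.34 ± 0.21 and Atp6v1e2 at 0.20 ± 0.25. Tcirg1 was thus on the higher side, where the a1 form was on the lower.

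Transporters driven by the vesicle proton gradient, among them those that load transmitters, had 6 of 9 genes below 0 and a median of -0.48. Slc18a3, the vesicular acetylcholine transporter, was lowest at -2.40 ± 0.28, and Slc17a7 (VGLUT1), for glutamate, was at -0.89 ± 0.20. Slc17a9, for nucleotides, was at 1.46 ± 0.23, and Slc18a1, a monoamine transporter of endocrine cells, at 0.92 ± 0.19. Slc17a9 and Slc18a1 were dim in the control, at log2 levels of -4.83 and -4.20, and Slc18a3 in GPHR F/F;Nes, at -4.20. Slc18a1 had no measured curated probe. Pumps and exchangers of the plasma membrane and endoplasmic reticulum had 14 of 18 below 0 and a median of -0.28, close to the value of the members. Among these Atp1b1, the beta subunit of the sodium pump, was at -0.72 ± 0.20, and Atp2b2 and Atp2b3, calcium pumps of neurons, at -0.61 ± 0.14 and -0.56 ± 0.12. Atp2a3, a calcium pump of blood and endothelial cells, was at 1.02 ± 0.33, also from a dim control level of -4.76.

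Further ion and sugar nucleotide transporters of the Golgi and acidic organelles were centred near 0, with 7 of 16 below 0 and a median of 0.03. Slc30a3 (ZnT3), which fills synaptic vesicles with zinc, was at -1.71 ± 0.30. The lysosomal cation channels Tpcn2 and Tpcn1 were at 1.02 ± 0.29 and 0.57 ± 0.15. Slc30a3 was dim in GPHR F/F;Nes, at a log2 level of -4.48, and Tpcn2 in the control, at -4.40. With median centring 14 of 16 were below 0 (median -0.25), and with spike-ins 15 of 16 (median -0.92).

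Lysosomal hydrolases and membrane proteins, which work in the lumen that the pump acidifies, lay on the other side of the members. All 35 were measured, 9 were below 0, and the median was 0.18. Ctss, a cathepsin of microglia, was at 1.35 ± 0.23, Cd63 at 0.74 ± 0.06 and Ctsh at 0.59 ± 0.18. That median turned to -0.09 with median centring and -0.77 with spike-ins, while the members were at -0.57 and -1.25. Of the TFEB family, Tfeb was at 0.48 ± 0.13 over 4 probes that ran from -0.22 to 1.25, Mitf at 0.26 ± 0.11 and Tfe3 at 0.10 ± 0.20. Of these 3, 2 were below 0 with median centring and 3 with spike-ins. In the promoter windows of the 26 lysosomal genes with an entry, CACGTG was in 10 (38.5%, against 25.9% of the members), TCACGTGA in 4 (15.4% against 18.5%) and GTCACGTG in 8 (30.8% against 14.8%).

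Synaptic vesicle proteins and neuronal markers lay on the same side as the members. The neuron list shares genes with the synaptic vesicle list and with the list of vesicle transporters above, so these lists are not separate observations. Of 22 synaptic vesicle genes 18 were below 0, with a median of -0.36, among them Synpr at -0.97 ± 0.15, Sv2a at -0.88 ± 0.20, Syp at -0.74 ± 0.20 and Syngr3 at -0.71 ± 0.20. Cplx2, the largest in summed level, was at 0.68 ± 0.14, and the summed level of the list was 342 in the control and 339 in GPHR F/F;Nes, or 238 and 173 without that gene. Of 19 neuron markers 19 were below 0, with a median of -0.32, and their summed level, relative to the 75th percentile, was 392 in the control and 292 in GPHR F/F;Nes. Nefm was at -1.60, Nefl at -1.14 and Rbfox3 (NeuN) at -0.88. In whole tissue, fewer cells of a type and less RNA per cell cannot be told apart.

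Markers of several non-neuronal cells were higher. In microglia and macrophages 11 of 14 were measured and 10 were above 0, with a median of 1.16. Their summed level was 44.2 in the control and 95.5 in GPHR F/F;Nes, most of it from Itgam, and 3.96 and 5.67 without it. P2ry12 and Mrc1 had no probe well above background on both arrays, and Tmem119 cleared it on the GPHR F/F;Nes array only. For endothelium and mural cells 7 of 12 were measured, the median was 1.23 and the sum was 14.9 and 44.5 (6.35 and 14.0 without Tagln, its largest gene), with Cldn5 and Cdh5 not measured. The choroid plexus and ependyma list had 7 of 10 measured, a median of 1.34 and a sum of 2.84 and 9.83. Without Foxj1, its largest gene in summed level, the sum was 1.27 and 6.58. Ttr had the largest difference, at 5.35. Meningeal genes had a median of 2.07 over 9 and a sum of 8.24 and 13.4. Without Dcn, the largest gene of that list, which was at -0.07, the sum was 1.76 and 7.26. The meningeal median was 0.93 with normexp, and 0.81 over the 2 genes that passed a stricter filter on dim probes. Astrocyte genes were mixed, with 6 of 10 above 0 and a median of 0.19. Oligodendrocyte lineage genes also went both ways, with 6 of 13 below 0, a median of 0.05 and a summed level of 32.5 in the control and 23.7 in GPHR F/F;Nes. Their precursor-stage markers Gpr17 and Pdgfra were at -2.46 and -0.67, and the myelin gene Mag at 0.77, the highest value of that list. The astrocyte and oligodendrocyte medians were below 0 with median centring and with spike-ins. The oligodendrocyte median was also below 0 with quantile scaling (-0.08), loess (-0.03) and normexp (-0.13). It was at -0.30 with a stricter filter on dim probes and -0.19 with the brightest probe. The part of these cell type markers in the values of the V-ATPase and transport genes was not tested.

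**Figure D4:**
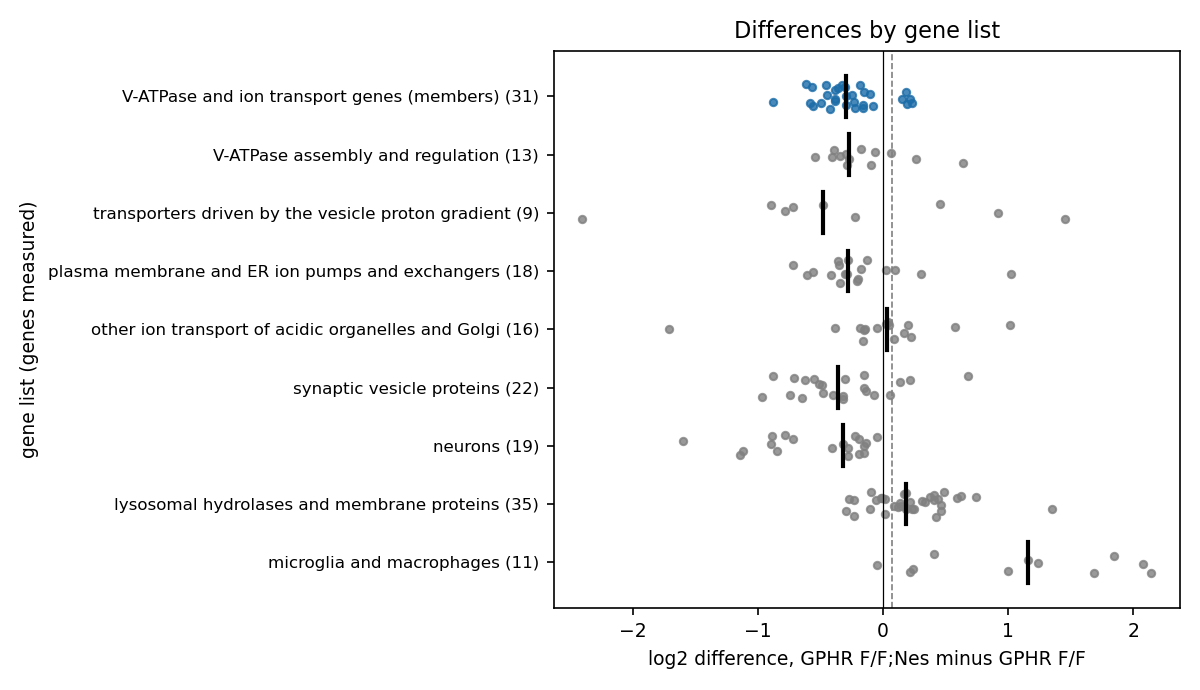
Log2 difference (horizontal axis, GPHR F/F;Nes relative to GPHR F/F) of each measured gene in the set and in 8 other lists, 1 point per gene, with a thick bar at each median and a dashed line at the median of all genes (0.07). The members (-0.30) sit beside synaptic vesicle (-0.36) and neuron genes (-0.32), and the lysosomal genes (0.18) and microglia genes (1.16) lie to the right. The lysosomal median turns to -0.09 with median centring and -0.77 with spike-ins. The microglia median falls to 0.32 with normexp and 0.21 with spike-ins.

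Direction depended on the scaling for the 5 members above 0. With median centring all 31 were below 0, as were 66.4% of all genes. Scaling to 8 spike-in probes also put all 31 below 0, with 91.3% of all genes. Those scalings moved the median of all genes by -0.28 and -0.95. Relative to the median of all genes, the median of the members lay between -0.52 and -0.27 in every setting tried.

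**Figure D5:**
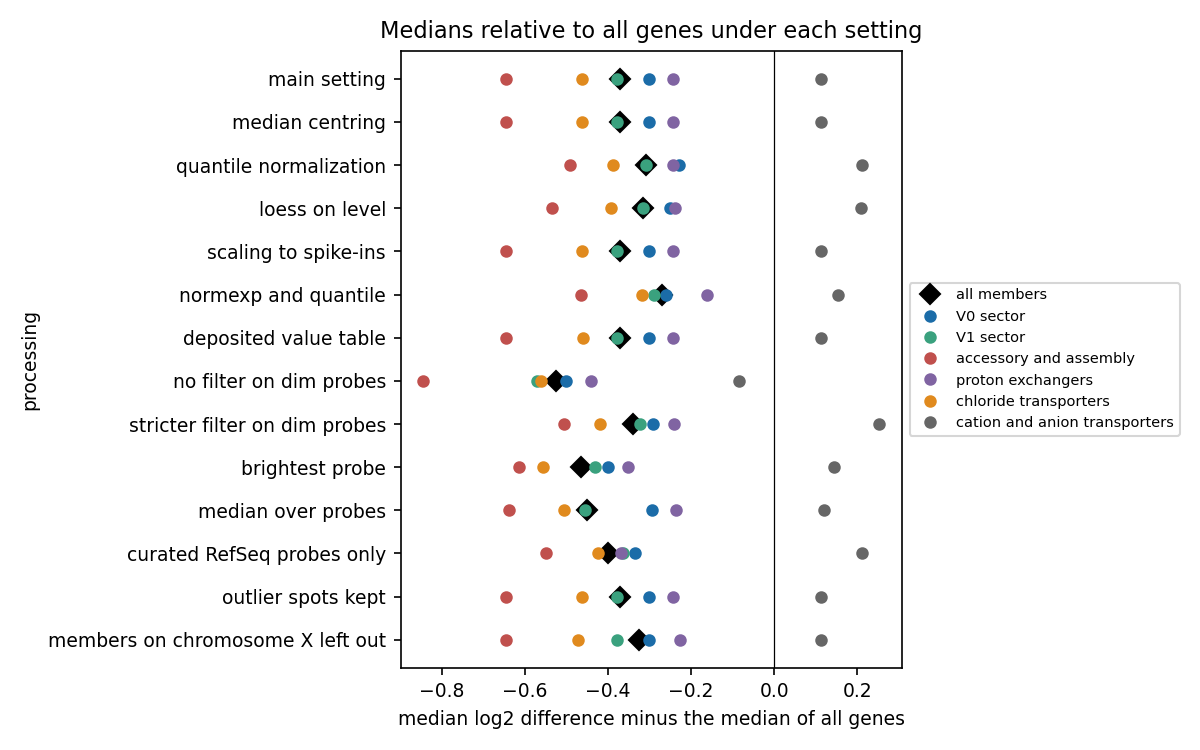
Median log2 difference of all members (black diamonds) and of each subgroup (coloured points) minus the median of all genes (horizontal axis), for each way of processing (vertical axis). The members lie between -0.52 and -0.27 throughout, accessory and assembly genes are the lowest subgroup in each setting, and the cation and anion transporters are the highest, right of 0 in every setting but the one without a filter on dim probes.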

How the data were processed

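Per the file headers, the arrays were read with Agilent Feature Extraction (version 11.5.1.1, per the submitters' processing notes), which gave each spot a background-subtracted, detrended intensity, its error and flags; the flags the authors deposited mark spots well above background, saturated or outlying. The deposited value table holds log2 signals, which equalled the log2 processed intensity plus a constant per array (-8.01 and -7.43) within 0.001 for 99.9% of values; column medians were -3.19 and -2.92.

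Here, log2 signals were set to each array's 75th percentile. Spots with outlier flags (51 per array) were left out and spots of a probe averaged, giving 56603 probes, of which 36717 were well above background on both arrays (67.0% of probes in GPHR F/F and 69.2% in GPHR F/F;Nes). Measured probes were averaged for each gene. The number of arrays, 2, limits the precision. Names were updated through RefSeq accessions (GRCm38.p6 table, names only; 32993 probes matched, 1535 renamed). Text names came from a rule: all members; up to 4 measured genes per pathway list by size of difference; up to 3 defining genes per marker list; Gpr89; Xist and Y-linked genes. Some genes that the rule names are not reported here. Members, lists and isoform pairs were chosen with earlier results of these data known. No test was run. A bound for a probe lost in 1 group uses the lowest signal well above background on that array (6.28 and 5.06 units) and leaves out scanner error.

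The averaging of probes into genes was tested on simulated data for this comparison over 23946 genes. Outlier removal, averaging of spots, scaling and the background filter were not put to this test. Of genes changed 2.5-fold 67 of 67 passed 2-fold, of those changed 4-fold 66 of 66, and of those changed 1.5-fold 0 of 67. At 1.5-fold the largest error was 0.25 on the log2 scale. The simulated noise was the spread of replicate spots within an array (SD 0.05), with no spread between animals and no shift between arrays. With noise that small the counts past 2-fold were largely set in advance. Passing a 1.5-fold threshold was not counted. Tools were Python 3.11.15, numpy 2.4.6, pandas 2.3.3, matplotlib 3.10.9, and R 4.3.3 with limma 3.58.1 for quantile, loess (span 0.3) and normexp (offset 50). The 14 alternatives are scaling (median, quantile, loess, spike-ins), normexp, the deposited table, filters on dim probes, the choice of probes, outlier spots, X-linked members and a 2-fold threshold.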

Additional observations from a re-analysis of the deposited data

Results flagged for a closer look

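One probe of Slc9a8 (NHE8), for an Ensembl transcript, read 8.49 units in GPHR F/F;Nes, where it was well above background, and 4.53 units in the control, where it was not. It took no part in the gene's value, because a probe had to be well above background on both arrays. By the bound used here, which leaves out scanner error, the signal in GPHR F/F;Nes was at least 2.02-fold higher. The difference as read was 1.49 ± 0.57, opposite in sign to the gene's 3 curated probes, whose mean was -0.27 ± 0.15. Groups of 1 array cannot be searched for an outlying sample, and no second tissue or time allows a difference between contrasts.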

How the results depend on the processing

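Centring each array on its median gave a member median of -0.57, 14 members 1.5-fold or more lower (16.5% of all genes), and subgroup medians of -0.50 (V0), -0.58 (V1), -0.85 (accessory and assembly), -0.44 (exchangers), -0.66 (chloride transporters) and -0.0885 (cation and anion transporters, a change of sign). Spike-in scaling gave -1.25, 31 members (72.0% of all genes), and -1.18, -1.26, -1.52, -1.12, -1.34 and -0.76 in that order, the last again a change of sign; both follow from a constant added to all genes. The count of 3 members 1.5-fold or more lower became 1 with loess (7.37% of all genes), 1 with normexp (2.27%), 5 with a stricter filter (6.29%), 6 with the brightest probe (6.54%), 6 with curated probes (7.46%) and 0 at 2-fold (1.37%); the cause was not tested. The chloride transporters were at -0.51 with the brightest probe and the exchangers at -0.39 with curated probes. In the other settings the member median was -0.25 to -0.42, and between 22 (X-linked members left out) and 31 members were below 0 over all settings. Without a filter on dim probes, Atp6v1a was at 0.76, Clcn7 at 0.07 and Slc9a8 at 0.27, because their unmeasured dim probes entered the mean. No paired analysis was possible because each genotype has 1 array, and no replicate could be left out.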
